A study of Mus musculus with 4 samples.

Results

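The immunoglobulin constant region genes and the J chain gene were followed in RNA of whole mammary fat pad (MFP), a subcutaneous fat depot that surrounds the mammary ducts and holds a lymph node. The set has 10 of the 55487 genes of the count file, taken as the rows whose symbol is Igha, Ighm, Ighd, Ighg1, Ighg2b, Ighg2c, Ighg3, Ighe, Igkc or Jchain, and each was found. The members were chosen by family with their aged and young counts already known (Igha had been singled out on its counts), so the age differences of the members are given as a description without a test. The MFP came from female mice of a strain the labels give as c57b/6j, with 2 aged samples at 14 months and 2 young samples at 8 weeks, and no other treatment or genotype is named. The labels call the samples biological replicates and do not say whether each is 1 animal or a pool. The pads were chopped and lysed whole, with no step stated for sorting cells or taking out the lymph node, so the libraries hold the RNA of every cell of the pad.

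An antibody is built of 2 kinds of chain, heavy and light, and each chain joins a variable end, which binds antigen, to a constant end, which sets its class. A naive B cell transcribes Ighm and Ighd together and carries IgM and IgD on its surface. After activation it may switch, by DNA recombination, to one of the downstream constant genes, which give the IgG subclasses, IgE or IgA. Plasma cells secrete antibody in bulk and hold far more immunoglobulin transcript than resting B cells do. Jchain encodes the joining peptide that links IgA into dimers and IgM into pentamers, and the linked forms are carried across epithelia, such as that of the lactating mammary gland, by the polymeric immunoglobulin receptor. In the strain used Ighg2c stands in the place that Ighg2a has in some other strains.

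By the GENCODE M21 annotation on GRCm38, the 8 heavy chain constant genes lie on the minus strand of chromosome 12 in 1 cluster. In the direction of transcription they run from Ighm (chr12:113418558-113422730) and Ighd (chr12:113406604-113416324) through Ighg3 (chr12:113356224-113361232), Ighg1 (chr12:113325240-113330523), Ighg2b (chr12:113302965-113307933), Ighg2c (chr12:113285325-113288932) and Ighe (chr12:113269260-113273248) to Igha (chr12:113254830-113260236). Igkc, the kappa light chain constant gene, lies at chr6:70726435-70726966 on the plus strand, and Jchain at chr5:88519809-88527891 on the minus strand. No exon of a member overlaps an exon of another annotated gene. The end of the secreted heavy chain is where the classes that take up J chain differ from the others: the codon before the last is a cysteine codon in Igha and Ighm, the residue to which J chain bonds, and is not one in Ighd, Ighe or the 4 IgG genes. The last 60 coding bases of 4 secreted transcripts are shown for that reason, 5′ to 3′ on the minus strand of chromosome 12, with the codon before the last in capitals, and Ighg2b and Ighg2c are set side by side because they are the closest pair in sequence.
Igha (chr12:113258771-113258830): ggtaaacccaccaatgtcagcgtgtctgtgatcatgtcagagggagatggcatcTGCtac
Ighm (chr12:113420870-113420929): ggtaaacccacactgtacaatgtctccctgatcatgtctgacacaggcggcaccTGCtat
Ighg2b (chr12:113306392-113306451): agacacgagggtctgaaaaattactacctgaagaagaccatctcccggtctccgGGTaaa
Ighg2c (chr12:113287392-113287451): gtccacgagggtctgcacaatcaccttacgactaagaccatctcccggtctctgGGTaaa
The Igha and Ighm ends differed at 19 of the 60 bases and the Ighg2b and Ighg2c ends at 14. Over the secreted coding sequence Ighg2b and Ighg2c were 85.7% identical in alignment and shared 56 stretches of 50 bases, while the other pairs of heavy chain genes shared 0 such stretches. Reads of Ighg2b and Ighg2c could in part have been counted for the wrong gene of the pair, and their separate values are less certain than their sum.

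The deposited counts summed to between 68803304 and 98402403 per library, and 3 counts, taken as the smallest number told from 0, came to 0.0337 to 0.0407 CPM (counts per 1000000 of the library size as scaled by TMM), a floor that covers counting error only. Of the 55487 genes, 22485 had enough counts to be tested between the ages, and edgeR's quasi-likelihood test called 0 of them (0% called) at a threshold of 0.05 on the Benjamini-Hochberg adjusted p. Before adjustment 10.5% of genes were under 0.05, and DESeq2 called 3.03% of its genes higher and 0.642% lower in aged MFP. With 2 samples against 2, the smallest exact two-sided permutation p for a single value is 0.333. Young replicate 1 stood apart in lymphocyte genes and aged replicate 2 in immunoglobulin transcripts, so values are printed sample by sample.

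Igha, the constant region of IgA, was the member whose aged values lay closest together in ratio. It had 793 and 1895 counts in aged replicates 1 and 2 and 64 and 41 counts in young replicates 1 and 2. In CPM these are 9.70 and 21.3 against 0.781 and 0.556, and the ages did not overlap. The aged mean was 15.5 ± 8.19 CPM (SD, n = 2) and the young mean 0.668 ± 0.159 CPM (SD, n = 2), a fitted log2 difference of 4.53. Leaving out each sample in turn gave log2 differences from 3.85 to 4.97. In bulk tissue, fewer cells of a type and less RNA of the gene in each cell cannot be told apart, here as for the other members.

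Jchain, needed for the secreted polymers of IgA and IgM, had the same order of samples as Igha. It had 778 and 10070 counts in aged replicates 1 and 2 and 49 and 31 counts in young replicates 1 and 2. The levels were 9.51 and 113 CPM in aged and 0.598 and 0.420 CPM in young MFP, so the 2 young samples were alike and the aged samples differed by more than 10 times (means 61.3 ± 73.2 and 0.509 ± 0.126 CPM; SD, n = 2 each). The log2 difference was 6.91 with all samples and 4.21 without aged replicate 2.

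Ighm, the constant region of IgM and of the naive B cell receptor, was the most abundant heavy chain gene in every sample. It had 9036 and 115857 counts in aged replicates 1 and 2 and 26166 and 1421 counts in young replicates 1 and 2. The levels of 111 and 1301 CPM in aged and 319 and 19.3 CPM in young MFP overlapped, with young replicate 1 above aged replicate 1 (means 706 ± 842 and 169 ± 212 CPM; SD, n = 2 each). The log2 difference was 2.06 with all samples, -0.62 without aged replicate 2, and was 5.20 without young replicate 1. Its direction therefore rested on 1 aged library.

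Ighd, transcribed with Ighm in naive B cells, was the member with the opposite pattern. It had 124 and 1172 counts in aged replicates 1 and 2 and 13396 and 83 counts in young replicates 1 and 2. Its 163 CPM in young replicate 1 stood against 1.52, 13.2 and 1.12 CPM in aged replicate 1, aged replicate 2 and young replicate 2. The log2 difference of -3.49 turned to 2.71 without young replicate 1, so its direction rested on 1 young library.

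The 4 IgG subclass genes were high in aged replicate 2. Ighg3 had 114 and 4783 counts in aged replicates 1 and 2 and 45 and 0 counts in young replicates 1 and 2, which is 1.39, 53.7, 0.549 and 0 CPM. Ighg2c had 137 and 2281 counts in aged and 7 and 1 in young MFP, which is 1.68, 25.6, 0.0854 and 0.0136 CPM. Both genes had the 2 aged samples above the 2 young, and their log2 differences of 6.62 and 8.03 came to 2.32 and 5.01 without aged replicate 2.
Ighg2b had 52 and 3969 counts in aged and 52 and 2 in young MFP, or 0.636, 44.6, 0.634 and 0.0271 CPM. Aged replicate 1 and young replicate 1 thus held the same number of reads, and relative to total counts aged replicate 1 was the lower sample (0.620 against 0.670 CPM), so the order of the ages depends on the scaling. Its log2 difference of 6.08 came to 0.92 without aged replicate 2. Ighg1 was nearly a gene of 1 library, with 3567 counts in aged replicate 2 (40.1 CPM) and 1, 8 and 0 counts in aged replicate 1, young replicate 1 and young replicate 2. Ighe, the constant region of IgE, had 12 counts in aged replicate 2, 1 count in each young sample and 0 in aged replicate 1, which allows up to 0.0367 CPM there. Ighg1 and Ighe did not pass the filter of the edgeR test.

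Igkc, the constant region of most mouse light chains, had 2401 and 48182 counts in aged replicates 1 and 2 and 6023 and 53 counts in young replicates 1 and 2. Its levels of 29.4, 541, 73.5 and 0.718 CPM had the same order of samples as Ighm, and the ages overlapped. The log2 difference of 2.94 was -0.35 without aged replicate 2 and 8.63 without young replicate 1. The lambda light chain constant genes, which are no members, were also highest in aged replicate 2 or young replicate 1: Iglc1 had 40, 1746, 548 and 2 counts in the order aged 1, aged 2, young 1 and young 2, Iglc2 56, 548, 1238 and 5, and Iglc3 20, 382, 1116 and 0. None of the 3 was called (adjusted p of 0.800, 0.840 and 0.814 in edgeR's quasi-likelihood test). Iglc2 overlaps the segment Iglj2 on the same strand, and Iglc3 a gene on the other strand, so part of their reads may belong to those genes.

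**Figure D1:**
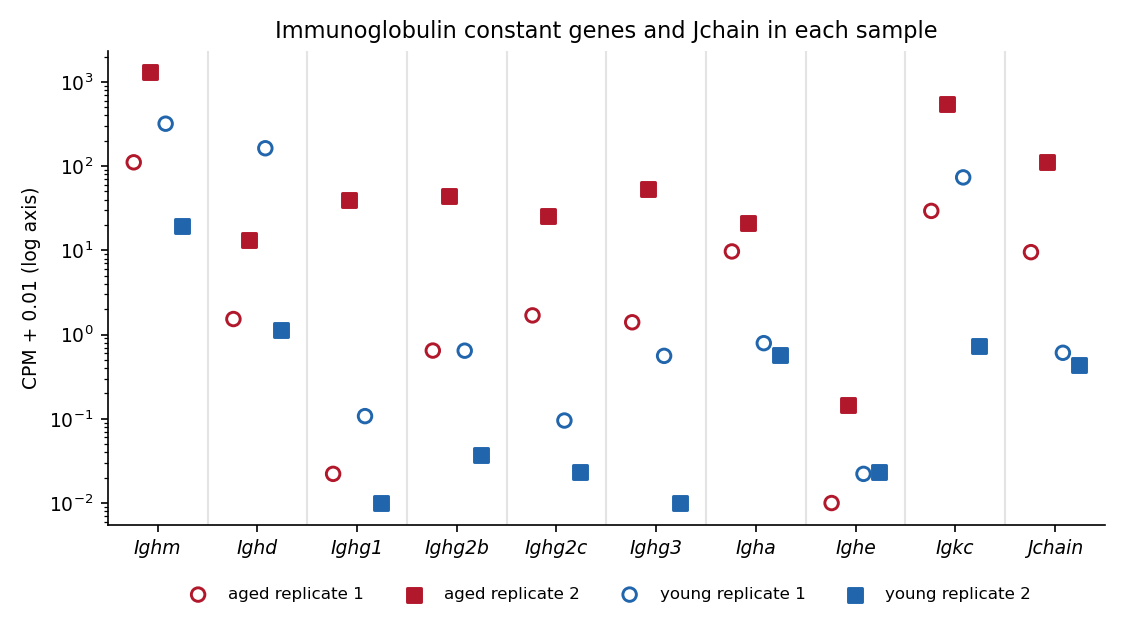
Level of each member in each of the 4 samples, in CPM with 0.01 added so that counts of 0 can be drawn on the log axis; red marks aged and blue young MFP, open circles replicate 1 and filled squares replicate 2. The 2 aged samples stand well above the 2 young for Igha (9.70 and 21.3 against 0.781 and 0.556 CPM) and Jchain, while Ighd is highest in young replicate 1 at 163 CPM.

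Of the 10 members, 5 had both aged samples above both young (Igha, Jchain, Ighg3, Ighg2c and, by a margin that total-count scaling removes, Ighg2b), 0 had both below, and 5 overlapped. Over all genes tested, 23.3% had both aged samples above and 22.8% both below. With CPM of total counts the number of members was 4. Aged replicate 2 was the highest sample for 9 of the 10 members and young replicate 2 the lowest for 9. Of the 8 members that edgeR tested, 0 were called and 3 were under 0.05 before adjustment (10.5% of all genes), and DESeq2 gave an adjusted p to 9 members and called 3 higher (Igha, Ighg2c and Jchain; 3.03% of all genes) and 0 lower (0.642% of all genes). As these contrasts were known when the members were chosen, nothing is read from the counts.

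**Figure D2:**
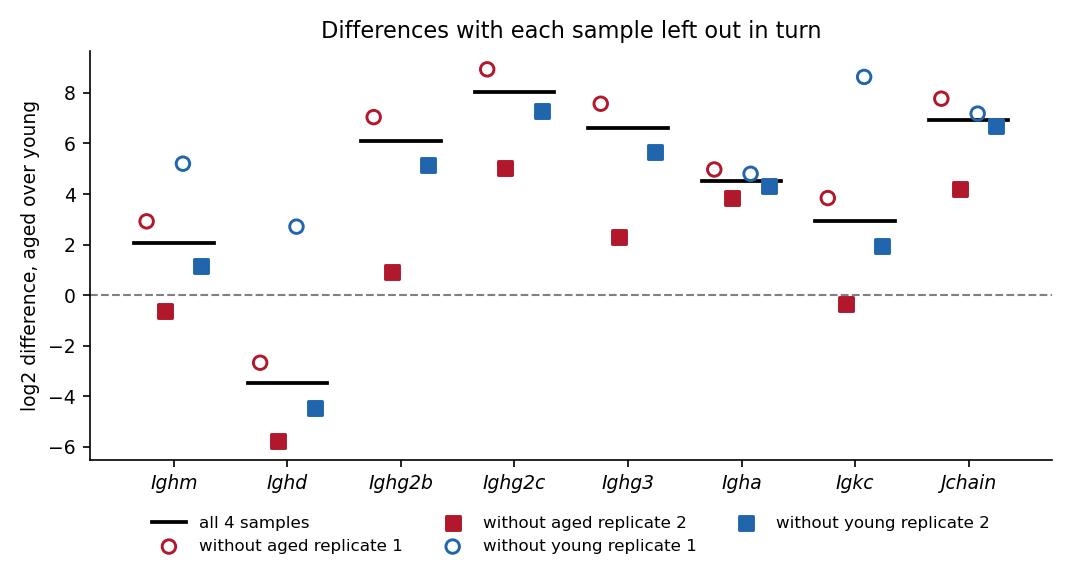
Fitted log2 difference of aged over young MFP for the 8 members edgeR tested, with all 4 samples (black bars) and with 1 sample left out (points); no point is drawn where the sample left at that age held 3 counts or fewer. Igha stays between 3.85 and 4.97, while Ighm and Igkc go below 0 without aged replicate 2 and Ighd goes above 0 without young replicate 1.

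Genes differ in length, so their levels within a sample were compared as CPM per kilobase of annotated exons. Ighm and Igkc led in every sample, with 58.6 and 55.2 in aged replicate 1, 690 and 1017 in aged replicate 2, 169 and 138 in young replicate 1 and 10.2 and 1.35 in young replicate 2. Jchain came next in the aged samples (3.78 and 44.9 CPM per kilobase), and Ighd in the young (86.0 and 0.592). Igha stood at 3.63, 7.98, 0.293 and 0.208 CPM per kilobase in aged 1, aged 2, young 1 and young 2. In aged replicate 1 it exceeded each IgG gene, of which Ighg2c was the highest at 1.26, whereas in aged replicate 2 it was below all 4, which lay between 15.5 and 21.4 CPM per kilobase. In young replicate 1 Igha, at 0.293, was close to Ighg2b at 0.237 and Ighg3 at 0.219, on 64, 52 and 45 counts. Per kilobase, Ighm and Igkc overlapped with each other at each age, as did Igha with Jchain and the 4 IgG genes among themselves, while in aged MFP both values of Ighm and of Igkc were above those of every other member.

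The isotype make-up was taken as the share of each gene in the counts over the 8 heavy chain genes, which summed to 10257 and 133536 in aged replicates 1 and 2 and to 39739 and 1549 in young replicates 1 and 2. Intervals are exact (Clopper-Pearson) at 95% and cover counting error only. Ighm made up 88.1% and 86.8% of the heavy chain counts in the aged samples and 65.8% and 91.7% in the young. Ighd made up 1.21% and 0.878% in the aged samples, 33.7% in young replicate 1 and 5.36% in young replicate 2. The Ighm to Ighd count ratio, which is low in naive B cells and high in cells that secrete IgM, was 72.9 and 98.9 in aged MFP and 1.95 and 17.1 in young MFP.

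The class-switched genes (Igha, Ighe and the IgG genes) together held 10.7% (interval 10.1 to 11.3) and 12.4% (12.2 to 12.5) of heavy chain counts in aged replicates 1 and 2. In young replicates 1 and 2 they held 0.445% (0.382 to 0.516) and 2.91% (2.13 to 3.87). The 2 aged samples were thus within 2 percentage points of each other although their heavy chain counts differed by more than 10 times, and the ages did not overlap. Per kilobase the shares were 8.75% and 10.4% against 0.335% and 2.15%.

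Within the switched classes the 2 aged samples were of different make-up. Igha took 72.3% (69.5 to 74.9) of the switched counts in aged replicate 1 and 11.5% (11.0 to 12.0) in aged replicate 2, where 14600 of 16507 switched counts were IgG. In young replicate 1 it took 36.2% (29.1 to 43.7) of 177 counts and in young replicate 2 91.1% (78.8 to 97.5) of 45 counts. The order of these shares did not follow age. As a share of all heavy chain counts, Igha was 7.73% (7.22 to 8.27) and 1.42% (1.36 to 1.48) in aged and 0.161% (0.124 to 0.206) and 2.65% (1.91 to 3.57) in young MFP. Young replicate 2 lay above aged replicate 2, so the share overlapped between the ages although the level did not, and the mean difference of 3.17 percentage points turned to -21.8 when Ighm and Ighd were left out of the denominator.

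The IgG subclasses were also mixed differently. Of 304 IgG counts in aged replicate 1, Ighg2c held 45.1% (39.4 to 50.8), Ighg3 37.5%, Ighg2b 17.1% and Ighg1 0.329%. Of 14600 in aged replicate 2, Ighg3 held 32.8% (32.0 to 33.5), Ighg2b 27.2%, Ighg1 24.4% and Ighg2c 15.6%. Young replicate 1 had 112 IgG counts, with Ighg2b at 46.4% (37.0 to 56.1) and Ighg3 at 40.2% (31.0 to 49.9), and young replicate 2 had 3, too few for a make-up. The Ighg1 share of aged replicate 1 rests on 1 count.

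**Figure D3:**
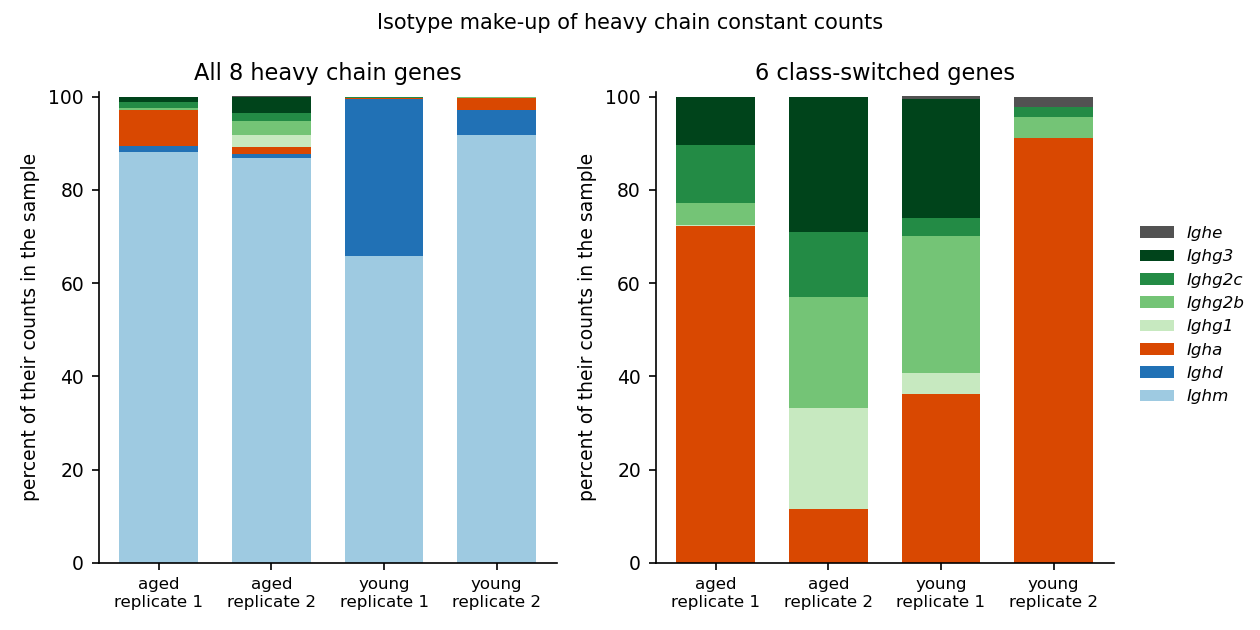
Share of each heavy chain gene in each sample, in percent of the counts over all 8 heavy chain genes (left) and over the 6 class-switched genes (right). Ighd takes 33.7% in young replicate 1, and Igha takes 72.3% of the switched counts in aged replicate 1 but 11.5% in aged replicate 2.

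Ratios between members do not depend on the library scaling. Jchain had 7.59 and 7.54 counts per 100 heavy chain counts in aged replicates 1 and 2 and 0.123 and 2.00 in young replicates 1 and 2. The 2 aged samples were nearly equal in this ratio and both lay above the young. Kappa was 95.4% and 94.7% of the light chain constant counts in aged MFP and 67.5% and 88.3% in young MFP, with an interval of 77.4 to 95.2 in young replicate 2, where Igkc had 53 counts and the lambda genes 7. That interval held the 94.7% of aged replicate 2 but not the 95.4% of aged replicate 1, whose own interval was 94.5 to 96.2. The members together made up 160 and 1949 CPM of total counts in aged and 590 and 23.7 CPM in young MFP.

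The lymph node signal was measured by lists of lymph node stroma and vessel genes, B cell genes and T cell genes. Summed over 12 lymph node genes, it was 3.97 and 33.1 CPM in aged replicates 1 and 2 and 777 and 2.82 CPM in young replicates 1 and 2. Young replicate 1 was the highest sample for 11 of the 12 genes, and Ccl21a, a T cell zone chemokine with near-identical copies in the genome, had 0 counts in every sample, which may be a matter of how shared reads were counted. Glycam1, a ligand of the high endothelial vessels and also a milk protein gene, had 34255 counts in young replicate 1 and 0, 29 and 0 in aged replicate 1, aged replicate 2 and young replicate 2. Fut7, which completes the vessel ligand, had 341 counts there against 4, 25 and 16, and Cxcl13, the chemokine of B cell follicles, 1611 against 30, 276 and 12. Ccl19, another T cell zone chemokine, had 50 against 16, 20 and 2.

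T cell genes had the same order, with 24.4, 120, 1511 and 16.3 summed CPM in aged 1, aged 2, young 1 and young 2, and young replicate 1 was highest for 16 of 16 genes (Cd3e, of the T cell receptor complex, had 154, 891, 10165 and 54 counts, and Trac, the receptor alpha constant gene, 91, 1132, 7911 and 105). B cell genes without Ebf1, which fat cell precursors also express, summed to 28.2, 149, 1138 and 20.3 CPM, and young replicate 1 was highest for 15 of 15. Ms4a1, which encodes CD20, had 50, 913, 5387 and 19 counts in the same order. Cd79a, the signalling partner of surface immunoglobulin, had 41, 957, 6111 and 19, and Cr2, a complement receptor of B cells and follicular dendritic cells, 29, 389, 6884 and 19. Each of these genes had its highest count in young replicate 1 and the next in aged replicate 2. The median log2 difference was -2.61 over the 16 B cell genes, -3.43 over the T cell genes and -3.13 over the 10 lymph node genes tested, against -0.04 over all genes tested. edgeR called 0 genes of each list, and without young replicate 1 the medians were 2.98, 2.45 and 3.05.

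Set beside these sums, the members fell into different relations. Ighd followed the lymph node sum sample for sample, and the ratio of its counts to the list's counts was 0.382 and 0.398 in aged replicates 1 and 2 and 0.210 and 0.399 in young replicates 1 and 2. Ighm had that order but for young replicate 1, and its ratio was 27.8 and 39.3 in aged against 0.411 and 6.83 in young MFP. Igha did not follow it: its ratio was 2.44 and 0.643 in aged and 0.00100 and 0.197 in young MFP, and the young samples had like Igha levels (0.781 and 0.556 CPM) at lymph node sums of 777 and 2.82 CPM. Jchain likewise stood at 0.598 and 0.420 CPM in those 2 samples. Glycam1 held 34255 of the list's 63712 counts in young replicate 1. The ratios to the list in that sample thus depend in large part on that gene, and ratios without it were not computed. With 4 samples no correlation was computed.

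**Figure D4:**
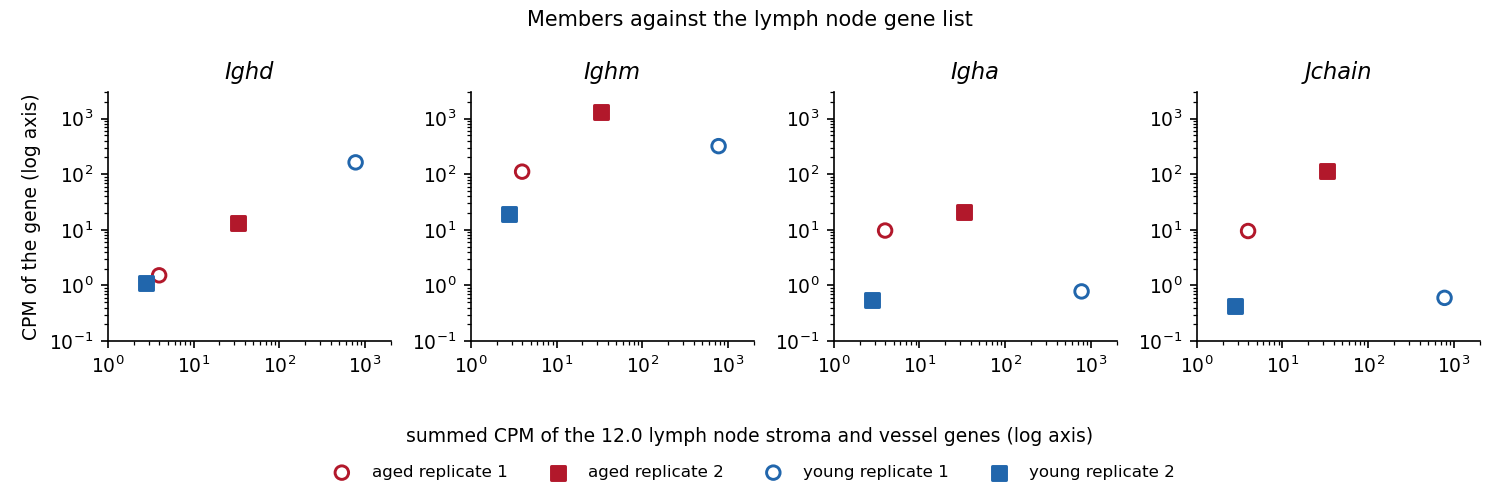
CPM of Ighd, Ighm, Igha and Jchain against the summed CPM of the 12 lymph node stroma and vessel genes, both on log axes, with 1 point per sample; red marks aged and blue young MFP. Ighd and the list have the same order over the 4 samples, from 1.12 CPM at 2.82 to 163 CPM at 777, while Igha and Jchain have nearly the same level in both young samples.

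Relative to the B cell genes without Ebf1, heavy chain counts were 4.44 and 10.1 per B cell count in aged replicates 1 and 2 and 0.426 and 1.03 in young replicates 1 and 2. For Ighm alone the ratio was 3.91 and 8.74 against 0.280 and 0.949, for Igkc 1.04 and 3.63 against 0.0646 and 0.0354, and for Jchain 0.337 and 0.759 against 0.000525 and 0.0207. On this scale Ighm and Igkc no longer overlapped between the ages. Ighd did overlap, at 0.0537, 0.0884, 0.144 and 0.0554 in aged 1, aged 2, young 1 and young 2. With Ebf1 kept in the list the aged samples were also above the young for Ighm (0.515 and 4.81 against 0.250 and 0.118).

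Plasma cell genes as a list had nearly the same sum at both ages. Summed over 16 genes they were 527 and 596 CPM in aged and 560 and 532 CPM in young MFP, with a median log2 difference of -0.12, 7 genes higher, 9 lower and 0 called by edgeR. The sum is led by genes that other cells of the pad also use: Xbp1, a regulator of secretory cells, had 16784 and 20459 counts in aged and 12042 and 15637 in young MFP, and Sdc1, a proteoglycan of plasma cells and epithelium, 4207 and 3275 against 2977 and 4618. Prdm1, which drives plasma cell differentiation, had 308 and 499 against 405 and 265 counts. Cd28, a T cell costimulator found on some plasma cells, was highest in young replicate 1 (3380 counts, against 149, 525 and 98).
Other genes of this list had low counts. Tnfrsf17, the survival receptor BCMA, had 24 and 58 counts in aged and 16 and 14 in young MFP. Mzb1, a chaperone of immunoglobulin assembly, had 12, 246, 60 and 4 counts in aged 1, aged 2, young 1 and young 2, and Derl3, of protein disposal in the endoplasmic reticulum, 47, 249, 77 and 59. These 3, grouped after their values were seen, had log2 differences of 1.29, 1.88 and 0.95. Pou2af1, Slamf7, Fkbp11 and Ccr10 of the same list went the other way (-1.10, -1.32, -0.46 and -0.65). Over the whole list 7 genes were higher and 9 lower. The grouped 3 summed to 1.02, 6.21, 1.87 and 1.04 CPM, so aged replicate 2 was the highest and the other samples lay between 1.02 and 1.87 CPM. Derl3 held 47 of the 83 counts of the 3 in aged replicate 1 and 249 of 553 in aged replicate 2. In young replicates 1 and 2 it held 77 of 153 and 59 of 77. Ratios to the 3 thus depend in large part on that gene, and ratios without it were not computed. Relative to the counts of the 3, Igha was 9.55 and 3.43 in aged against 0.418 and 0.532 in young MFP. Jchain was 9.37 and 18.2 against 0.320 and 0.403. On this scale Ighm, at 109 and 210 against 171 and 18.5, and Igkc, at 28.9 and 87.1 against 39.4 and 0.688, overlapped between the ages, unlike relative to the B cell genes.

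Genes of switching, survival, transport and reception of antibody had 0 calls in edgeR. In the switching list the median log2 difference was -0.01, and Batf, a transcription factor of activated B and T cells, had 147 and 240 counts in aged and 563 and 247 in young MFP. In the IgA transport and homing list (median -0.30, 4 higher and 5 lower), Pigr, the polymeric immunoglobulin receptor, had 97 and 104 counts in aged and 50 and 43 in young MFP (log2 difference 0.98). Ccl28, a mammary chemokine that draws IgA plasma cells, had 50, 72, 50 and 54 counts in aged 1, aged 2, young 1 and young 2, and its receptor gene Ccr10 20, 42, 60 and 29. Pigr was thus higher in both aged samples, without a call, while Ccl28 and Ccr10 overlapped. Ccr9 and Itgb7, homing receptors that T cells also carry, were highest in young replicate 1 (2050 and 10668 counts).
In the survival and switch cytokine list (median -0.64), Tnfsf13, which encodes APRIL, had 184, 211, 99 and 176 counts, and Tnfsf13b, which encodes BAFF, 292, 417, 428 and 153 in the same order. Cd40lg, the T cell signal for switching, and Tnfrsf13c, the BAFF receptor, were highest in young replicate 1 (499 and 2146 counts). In the immunoglobulin receptor list (median 0.39), Fcgrt, the neonatal Fc receptor that recycles IgG, had 12377 and 9628 counts in aged and 8802 and 6955 in young MFP. Fcmr, the IgM receptor of B cells, had 25, 447, 4727 and 24 counts in aged 1, aged 2, young 1 and young 2, and Fcer1a, of the mast cell IgE receptor, 14, 13, 1 and 1, under the floor in both young samples (adjusted p of 0.360 in edgeR's quasi-likelihood test).

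Markers of the other tissues of the pad were present in every sample and in part were ordered by age. The 8 adipocyte genes summed to 10640 and 8653 CPM in aged and 6630 and 7043 CPM in young MFP. Both aged samples were above both young for 7 of them, against 23.3% of all genes tested. Lep and Adipoq, hormones of fat cells, had log2 differences of 1.20 and 1.00. The 8 skeletal muscle genes summed to 36201 and 58541 against 9535 and 13541 CPM, with both aged above both young for all 8 (23.3% of all genes tested). DESeq2 called 6 of them higher (3.03% of all its genes), while edgeR called 0 (0% of all genes). Myh2, a fast muscle myosin, had 47255 counts in aged replicate 1 and 192, 94 and 78 in the other samples, and Tnnt3, of fast muscle troponin, 85042 and 175486 against 21859 and 30192. The sums of mammary epithelium genes (1314, 1232, 705 and 1493 CPM in aged 1, aged 2, young 1 and young 2) and of macrophage genes (333, 402, 550 and 258 CPM) overlapped between the ages. Both aged samples were above both young for 2 of the 8 epithelial and 3 of the 8 macrophage genes (23.3% of all genes tested). The 2 epithelial genes were Krt5 (74.9 and 86.2 CPM in aged against 12.1 and 50.9 in young MFP) and Krt14 (48.6 and 50.6 against 8.47 and 34.1). Both were lowest in young replicate 1 (989 and 694 counts), and the macrophage genes Lyz2 and Marco were highest there (30700 and 186). The part of muscle, fat or lymph node tissue in the differences of Igha, Jchain and the IgG genes was not tested, and the amount of each tissue in a sample and the age cannot be told apart with 2 samples an age.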

How the data were processed

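Total RNA of whole MFP (2 aged and 2 young samples) was depleted of ribosomal RNA and sequenced with a directional kit. The authors deposited raw, unpooled counts for each gene; the submitters' processing notes name featureCounts and GRCm38, and the aligner, annotation release and strand setting are not given in the sources used here. Groups and replicate numbers were read from the sample titles. Genes were kept by filterByExpr, scaled by TMM and compared by the quasi-likelihood test (edgeR 4.0.16, limma 3.58.1, R 4.3.3), with age as the only term. DESeq2 1.42.0 served as an alternative. The log2 CPM used a prior count of 2. For 114 symbols found on several rows, the row with the highest counts was kept. Coordinates, exon lengths and transcripts come from GENCODE M21, which holds 55227 of the 55487 identifiers. The code was tested on simulated counts.

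The members and all gene lists were chosen with earlier results of these data known. Named were all members, the lambda genes, marker genes listed by role (some are not reported here), the 2 genes of each list with the largest absolute log2 difference, and the 10 genes nearest in pattern to Igha and to Ighm; the group of Tnfrsf17, Mzb1 and Derl3 and the list without Ebf1 were added after the data were seen. Alternatives were other scalings and filters, leaving out mitochondrial or immunoglobulin genes, DESeq2, the replicate block and leaving out each sample. PCR reads without molecular identifiers are not independent molecules, and p-values cover the spread between these samples.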

Additional observations from a re-analysis of the deposited data

How the results depend on the processing

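The count of genes called was 0 in edgeR under the other scalings, filters, gene exclusions and with each sample left out, and 845 in DESeq2, which also called 3 of the members and 7 genes of the other lists where edgeR called 0. With the replicate number as a replicate block edgeR called 0 genes. Same-numbered samples did not deviate together (correlation of their deviations from the age means -0.48 over 22485 genes). With 2 samples an age, crossed numbers give the same correlation with the opposite sign. It therefore cannot settle whether the numbers pair the samples. With the replicate numbers crossed, chosen after seeing the data, edgeR also called 0. Without aged replicate 2, Ighm was at -0.62 and Igkc at -0.35 on the log2 scale, and without young replicate 1, Ighd was at 2.71 and the list medians at 2.98 for B cells, 2.45 for T cells, 3.05 for the lymph node and 0.37 for plasma cells. The plasma cell median was 0.04 without aged replicate 1. The other ends of these leave-one-out ranges were 5.20 for Ighm and 8.63 for Igkc without young replicate 1, and, without aged replicate 2, -5.77 for Ighd and medians of -5.27 for B cells, -5.06 for T cells, -5.09 for the lymph node and -0.50 for plasma cells. The Igha share of heavy chain counts, aged minus young, was 3.17 percentage points and -21.8 without Ighm and Ighd in the denominator, and it ranged from 0.0151 to 6.33 with each sample left out. Where 1 sample was left at an age, it was assumed to vary like the other age. The cause of these changes was not tested. Depth limits Ighg1, Ighe and the IgG genes in young replicate 2, where 3 counts in all were IgG.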

Other observations

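Variable segment genes of the heavy chain were counted too, over 113 genes, with 1025 and 21333 counts in aged replicates 1 and 2 and 3824 and 24 in young replicates 1 and 2, the same order as Ighm. In aged replicate 1 Ighv11-2 held 15.0% of them and in aged replicate 2 Ighv14-4 held 22.2%, against 4.52% for the leading segment, Ighv1-26, in young replicate 1; young replicate 2 had 24 counts over 15 segments. Among 100 kappa variable segments the leading segment held 24.3% (Igkv3-2), 16.1% (Igkv6-20) and 5.09% (Igkv1-117) of 1808, 33107 and 4521 counts in aged 1, aged 2 and young 1. Young replicate 1, the sample with most B cell transcript, thus had the lowest leading share and the most heavy segments detected (102 of 113, against 93 in aged replicate 2 at more counts).

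By Euclidean distance of centred log2 CPM over the 4 samples, the 10 genes nearest to Ighm were all immunoglobulin variable segments, with Igkv4-68 at 0.219, Igkv4-74 at 0.448 and Ighv1-15 at 0.484. The 10 nearest to Igha held no immunoglobulin gene. They were Gm12514 at 0.603, Gm12888 at 0.620, Atp13a5 and Gm12887 at 0.702 each, Hspb7 at 0.887, Kcnj15 at 0.919, Chrna1 at 0.987, Muc5b at 1.01, Gdf3 at 1.04 and Gm10637 at 1.06. Gm12514, Gm12888, Gm12887, Muc5b and Gm10637 had 0 or 1 count in each young sample, under the floor of 3 counts. Their distances therefore depend in part on the prior count of 2. Hspb7 encodes a muscle small heat shock protein and Chrna1 a subunit of the muscle acetylcholine receptor, and Kcnj15 had 68.5 and 119 CPM in aged and 7.93 and 7.45 CPM in young MFP. Among the members themselves the closest pairs were Ighg2c and Jchain at 1.05 and Ighg2b and Ighg3 at 1.58, and Igha was nearest to Jchain at 2.33. These distances rest on 4 samples and say nothing of shared function.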
